A study of Mus musculus with 12 samples.

Results

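The collagen genes were taken as every row of the expression table whose symbol reads Col, a number, a and a number, which gave 44 of the 48321 genes listed. They were sorted by the structures their proteins form into 11 fibrillar, 9 network, 9 fibril-associated and 15 other genes. A low-value filter (10 normalized counts or more in 3 or more of the 12 libraries) left 22 of the 44 to be tested, among 11998 genes tested in all. The libraries came from murine brown preadipocytes, taken from the interscapular fat of wildtype C57BL/6J mice (a newborn mouse, in the study's methods) and immortalized with SV40 large T antigen, which were differentiated for 8 days with a cocktail that held rosiglitazone, dexamethasone, 3-isobutyl methylxanthine, insulin and triiodothyronine. The cells carried the empty pLEX lentiviral vector or a truncated, soluble Sema4B (tSema4B, a mimic of the ectodomain that the protease ADAM17 releases), and each line was left unstimulated or given 2 μM norepinephrine (NE) for 6 h in serum-free medium. Both lines with and without NE made 4 groups, and each had 3 libraries, which GEO's design text calls technical. All groups shared the immortalization and the differentiation cocktail, and 1 stably transduced line stood for each construct. The p-values below therefore measure the spread between these libraries, and what separates tSema4B from vector samples is also what separates 1 line from the other.

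Collagens are the main structural proteins of the extracellular matrix, built from chains that wind around each other into a rigid helix. The helix needs a glycine as the first residue of each triplet. Fibrillar collagens (types I, III, V, XI and others) pack into the cables that bear tension, network collagens such as type IV form the sheet of the basement membrane, and fibril-associated collagens sit on fibril surfaces. Type VI makes beaded filaments that surround cells and is a well-known part of the adipose matrix. Preadipocytes make a matrix rich in fibrillar collagens, and fat cells are wrapped in a basement membrane. NE activates beta-adrenergic receptors and with them the thermogenic program of brown fat.

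The glycine rule is visible in the coding sequence, and 3 stretches of 72 bases are shown here because they contrast a fibrillar, a network and a beaded-filament chain. Each starts at the first codon of the longest unbroken run of triplets of this kind in its transcript, is spliced, is written 5′ to 3′, and comes from the GENCODE M21 transcripts on GRCm38. Capitals mark the codons of the form GGN, which encode glycine. The Col1a1 stretch lies in exons 6 to 8 (chr11:94939451-94939921, plus strand, codons 168 to 191), that of Col4a1 in exons 2 to 3 (chr8:11247042-11267614, minus strand, codons 43 to 66) and that of Col6a1 in exons 8 to 9 (chr10:76719641-76720996, minus strand, codons 256 to 279).
Col1a1: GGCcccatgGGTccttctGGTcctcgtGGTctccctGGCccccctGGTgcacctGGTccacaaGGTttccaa
Col4a1: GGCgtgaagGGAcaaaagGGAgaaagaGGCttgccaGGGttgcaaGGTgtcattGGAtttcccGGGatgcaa
Col6a1: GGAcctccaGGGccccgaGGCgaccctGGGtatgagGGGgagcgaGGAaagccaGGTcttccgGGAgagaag
In Col1a1 this run went on for 338 triplets without a break. In Col4a1 the longest run was 40 triplets, and the coding sequence held 22 runs of 5 or more. In Col6a1 it was 87. Over the classes the longest run was 216 to 344 triplets in fibrillar genes, 39 to 66 in network genes, 32 to 113 in fibril-associated genes and 23 to 87 in the others.

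Between 2000780 and 5409583 reads were counted on genes per library, and 1 read was worth 0.593 to 1.55 normalized counts. Within each condition the vector libraries were the deeper ones. Sema4b was at 110786 to 124008 normalized counts in the unstimulated vector libraries and at 258257 to 316850 in the tSema4B libraries, and after NE at 65472 to 81754 and at 208760 to 270694, so the construct's gene was higher in every tSema4B library but was high in the vector libraries too. Reads of the cells' own gene and of the construct cannot be told apart in this row, and where the reads in the vector libraries come from was not tested. The 10 adipocyte markers summed to 42229 to 48589 normalized counts in vector and 7368 to 10115 in tSema4B cells without stimulation. After NE they summed to 55998 to 67499 and 11361 to 12901. All 10 were lower in tSema4B cells in both conditions, where 7.39% (unstimulated) and 11.2% (NE) of all genes tested were. The 8 brown adipocyte markers summed to 164 to 230.2 and 41.7 to 69.8 without stimulation and to 477 to 507 and 119 to 152 after NE, in vector and tSema4B cells. Of them, Ucp1 had no read in the unstimulated tSema4B libraries and Dio2 none in any library. In both conditions 4 of the 6 tested were lower in tSema4B cells, against 7.39% and 11.2% of all genes tested. Cox7a1, counted among these, had at most 4 reads without stimulation and 5 after NE per tSema4B library. It passed the low-value filter through its vector libraries only, so it had to differ. Cidea, with at most 6 and 12 reads there, was close to this case. Ppargc1a, at a mean of 20.8 and 32.8 without stimulation and 13.5 and 18.3 after NE, did not pass the test. The 12 fibroblast and preadipocyte markers, which hold no collagen, summed to 5256 to 5719 and 7241 to 7987 without stimulation and to 4302 to 4370 and 6014 to 6479 after NE. Smooth muscle and pericyte markers summed to 881 to 1356 and 1223 to 1377 and after NE to 692 to 943 and 564 to 898. Macrophage markers summed to at most 24.6 and endothelial markers to at most 21.9, with Adgre1, Ptprc, Kdr and Tie1 at no read in any library.

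Collagen transcripts took up a larger share of the transcriptome in tSema4B cells. Without stimulation the 44 genes held 1.23%, 1.24% and 1.18% of the reads counted on genes in the vector line (mean 1.22% ± 0.0342, SD, n = 3), and in the tSema4B line 2.14%, 2.44% and 2.17% (2.25% ± 0.165). After NE the share was 1.03%, 0.875% and 0.922% in vector cells (0.941% ± 0.0773) and 1.92%, 1.86% and 2.03% in tSema4B cells (1.93% ± 0.0844). The ratio of the means was 1.85 without stimulation and 2.06 after NE, and the lowest tSema4B library stood above the highest vector library in both. In a bulk sample a change in the number of cells of a type cannot be told apart from a change in the RNA per cell. Between the lines, the adipocyte marker sum was lower and the fibroblast marker sum higher in tSema4B cells. The part of either in the collagen share was not tested. The adipocyte sum rests mainly on abundant genes such as Fabp4, at a mean of 24034 in unstimulated vector cells. After NE 1 of the 10 adipocyte markers rose and 2 fell in vector cells, against 6.82% and 4.78% of all genes tested. In tSema4B cells 3 rose and 0 fell, against 3.68% and 2.58%. Mitochondrial reads were 13.4% to 16.7% of reads in vector and 6.91% to 7.89% in tSema4B libraries, and on nuclear genes alone the share was 1.42% against 2.43% without stimulation and 1.12% against 2.09% after NE.

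**Figure D1:**
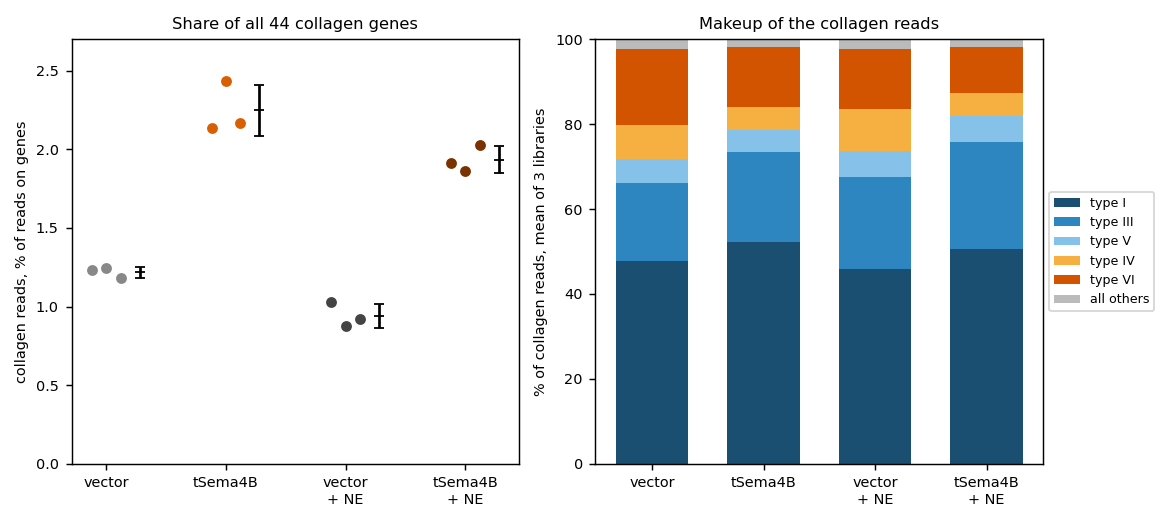
Left, reads on the 44 collagen genes as a percentage of the reads on genes, with 1 point per library and the mean with its SD (n = 3) beside each group. Right, stacked bars of the mean makeup of those reads by collagen type. The tSema4B groups stand at 2.25% and 1.93% against 1.22% and 0.941% in vector cells.

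The makeup of the collagen reads differed too. Without stimulation, type I took 47.9% ± 0.577 of them in the vector line and 52.3% ± 0.480 in the tSema4B line (SD, n = 3), and type III, a single gene, 18.2% ± 0.712 and 21.1% ± 0.296. Type IV went the other way, at 8.06% ± 0.334 against 5.38% ± 0.255, as did type VI at 17.7% ± 0.338 against 14.0% ± 0.674. After NE the order was alike, with type III at 21.5% ± 0.843 and 25.2% ± 0.427, and type IV at 9.93% ± 0.276 and 5.29% ± 0.234. None of these 4 types overlapped between vector and tSema4B libraries within a condition. These are shares of 1 total and do not vary independently.

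Per kilobase of the principal transcript, Col1a2 was the highest collagen gene in all 4 groups, at 2313 normalized counts per kb in unstimulated vector cells, followed by Col3a1 at 1241. Col6a1 stood at 1053 and Col1a1 at 967 there. In the other 3 groups Col1a1 was the higher of the pair, at 1977 against 1534 in unstimulated tSema4B cells. The order below Col1a2 depends on the length used. Per kb of the union of all annotated exons, Col1a2 stood at 995 in unstimulated vector cells, Col6a1 at 985, Col1a1 at 874 and Col3a1 at 703. At the low end of the genes tested per kb of principal transcript in unstimulated vector cells were Col27a1 at 1.04, Col7a1 at 0.885 and Col28a1 at 0.845 per kb, which do not differ beyond their spread.

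The 22 genes that were not tested had few or no reads in these cells. Col13a1, Col22a1, Col6a6 and Col9a1 had no read in any library. Of the other 18 genes left untested, Col19a1, Col26a1 and Col9a2 never passed 1 read in a library, and Col10a1, Col6a4 and Col6a5 never passed 3. Col24a1, Col25a1, Col4a3 and Col9a3 reached 4 reads at most, Col23a1 5, Col11a2 8, Col2a1 10 and Col20a1 12. Col14a1, Col17a1, Col4a4 and Col8a2 reached 10 normalized counts in only 1 or 2 libraries, with a maximum of 16 to 23 reads. Col17a1 had its 23 reads in 1 tSema4B NE library and none in the other 2. Col2a1, Col10a1 and the Col9a genes are the cartilage collagens, and Col17a1 belongs to epithelial attachment.

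The first question was which collagen genes differed between tSema4B and vector cells without stimulation. At an adjusted p of 0.05 or less, 13 of the 22 members rose in tSema4B cells, where 5.64% of all genes tested did, and 1 fell, where 7.39% of all genes did. When a log2 change of 1 or more was required too, 3 rose and 1 fell, against 1.11% and 2.71% of all genes. The median log2 fold change over the 22 was 0.60, beside -0.00 over all genes tested. After NE, 10 rose, against 9.79% of all genes, and 1 fell, against 11.2%. With that change required, 4 rose and 1 fell, against 2.03% and 3.73%, and the median was 0.59 beside -0.01. Without stimulation the ranges of the lines were apart for 14 members that were higher and 1 that was lower in tSema4B cells (14.2% and 15.1% of all genes), and for 12 and 1 after NE (17.9% and 19.8%). A member that passed the low-value filter only through the group where it was high had to differ, which is the case for Col11a1, the member counted as lower in both conditions.

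**Figure D2:**
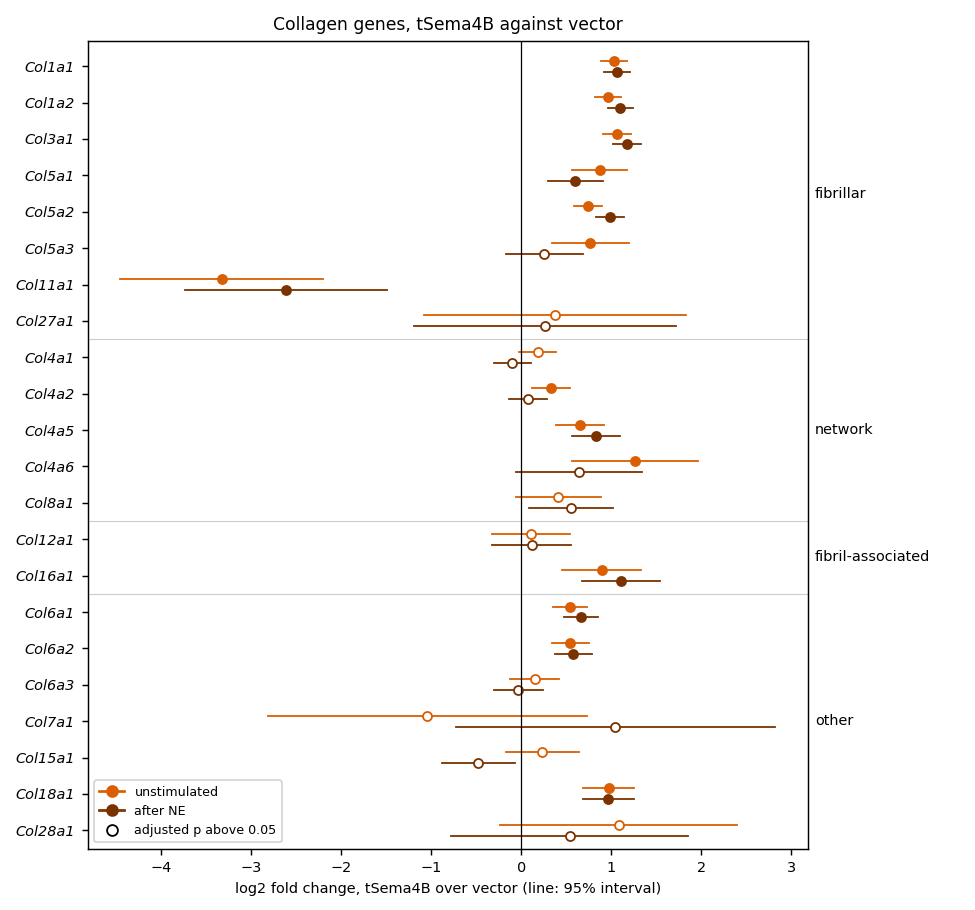
Log2 fold change of tSema4B over vector for the 22 members tested, grouped by class, without stimulation and after NE. Lines are 95% intervals of the limma fit, and filled points have an adjusted p of 0.05 or less. Col1a1, Col1a2 and Col3a1 sit near 1 in both conditions, and Col11a1 at -3.33 and -2.62.

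Type I collagen is a trimer of 2 chains of Col1a1 and 1 of Col1a2. Col1a1 (chr11:94936224-94953042, plus strand, GRCm38) was at 5594, 5801 and 5816 normalized counts in the unstimulated vector libraries and at 10999, 12749 and 11422 in the tSema4B libraries. Every tSema4B library was above every vector library, and Col1a1 rose by 1.03 on the log2 scale (SE 0.07, adjusted p = 5.7e-10 in limma). After NE it was at 5115, 4323 and 4543 in vector and 10022, 9330.0 and 9811 in tSema4B cells, again without overlap, and rose by 1.06 (SE 0.07, adjusted p = 2.7e-10). Col1a2 was at 12694, 12371 and 12043 in vector and 22522, 26936 and 23158 in tSema4B cells without stimulation, and at 9714, 8722 and 9152 and 19534, 18666 and 20923 after NE. It rose by 0.96 and 1.10 on the log2 scale (SE 0.07 each, adjusted p = 9.4e-10 and 1.1e-10). The Col1a1 to Col1a2 ratio per kb was 0.419 ± 0.0194, 0.437 ± 0.00936, 0.457 ± 0.0159 and 0.445 ± 0.0204 in vector, tSema4B, vector NE and tSema4B NE cells (SD, n = 3). In vector cells the NE libraries lay above the unstimulated ones, at 0.447 to 0.475 against 0.397 to 0.436. The ratio depends on the transcript length chosen and, with the union of all annotated exons as the length, was 0.879 in unstimulated vector cells.

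Col3a1, which forms thinner fibrils together with type I, was at 6882, 7317 and 6515 normalized counts in vector and 13854, 15687 and 13844 in tSema4B cells without stimulation. After NE it was at 7311, 6005 and 6155 and at 14265, 14257 and 15428. The groups were apart in both conditions, and Col3a1 rose by 1.07 and 1.18 on the log2 scale (SE 0.07 each, adjusted p = 9.4e-10 and 1.7e-10). Col3a1 shares 141 exon bases with Gm47302, a miRNA gene on the same strand, and reads there cannot be assigned to either.

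Type V collagen is built into type I fibrils and limits their width. Col5a2, the type V gene with the highest counts here, was at 1728, 1779 and 1815 normalized counts in vector and 2674, 3225 and 3028 in tSema4B cells, and after NE at 1652, 1486 and 1609 and at 3142, 3092 and 3166. It rose by 0.74 and 0.99 on the log2 scale (SE 0.08 each, adjusted p = 2.9e-07 and 4.1e-09), with no overlap of the groups. Col5a1 was at 249, 284 and 255 in vector and 501, 534 and 413 in tSema4B cells, and after NE at 239.9, 185 and 199.7 and at 268, 294 and 394. It rose by 0.87 (SE 0.15, adjusted p = 0.00027) and 0.60 (adjusted p = 0.0059), and after NE the lowest tSema4B library stood little above the highest vector library. Of its exon bases, 113 overlap Gm13372 on the opposite strand, and how the authors' counting treated strand is not stated in the sources used here.

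Col5a3, a minor type V chain, was at 165, 139 and 125 normalized counts in vector and 209, 331 and 207 in tSema4B cells without stimulation. The tSema4B library with 331 stood apart from the other 2. Col5a3 rose by 0.77 (SE 0.21, adjusted p = 0.015), but without that library (replicate 2) the log2 fold change was 0.54 (adjusted p = 0.11), and the call was also lost without vector replicate 2 (adjusted p = 0.054) or 3 (adjusted p = 0.067). After NE the values were 86.7, 76.5 and 115 in vector and 96.5, 103 and 131 in tSema4B cells. These overlapped, and the log2 fold change was 0.25 (95% interval -0.17 to 0.68, adjusted p = 0.42).

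Col11a1 (chr3:114030540-114220718, plus strand, GRCm38), a fibrillar chain best known from cartilage, was the exception in its class. It was at 26.1, 37.0 and 53.4 normalized counts in vector and 4.77, 1.55 and 2.74 in tSema4B cells without stimulation, and after NE at 25.5, 52.8 and 30.1 and at 6.43, 1.89 and 7.93. In reads this was 24 to 49 and 38 to 89 per vector library and only 1 to 4 and 2 to 6 per tSema4B library. It passed the low-value filter through its vector libraries only, so it had to differ, and its fitted log2 differences of -3.33 and -2.62 are given as a description. Their size depends on the value added before the logarithm, being -1.88 and -1.56 with a pseudocount of 10. Col27a1, the remaining fibrillar gene tested, was between 2.64 and 18.2 in all libraries and did not pass the test in any comparison.

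**Figure D3:**
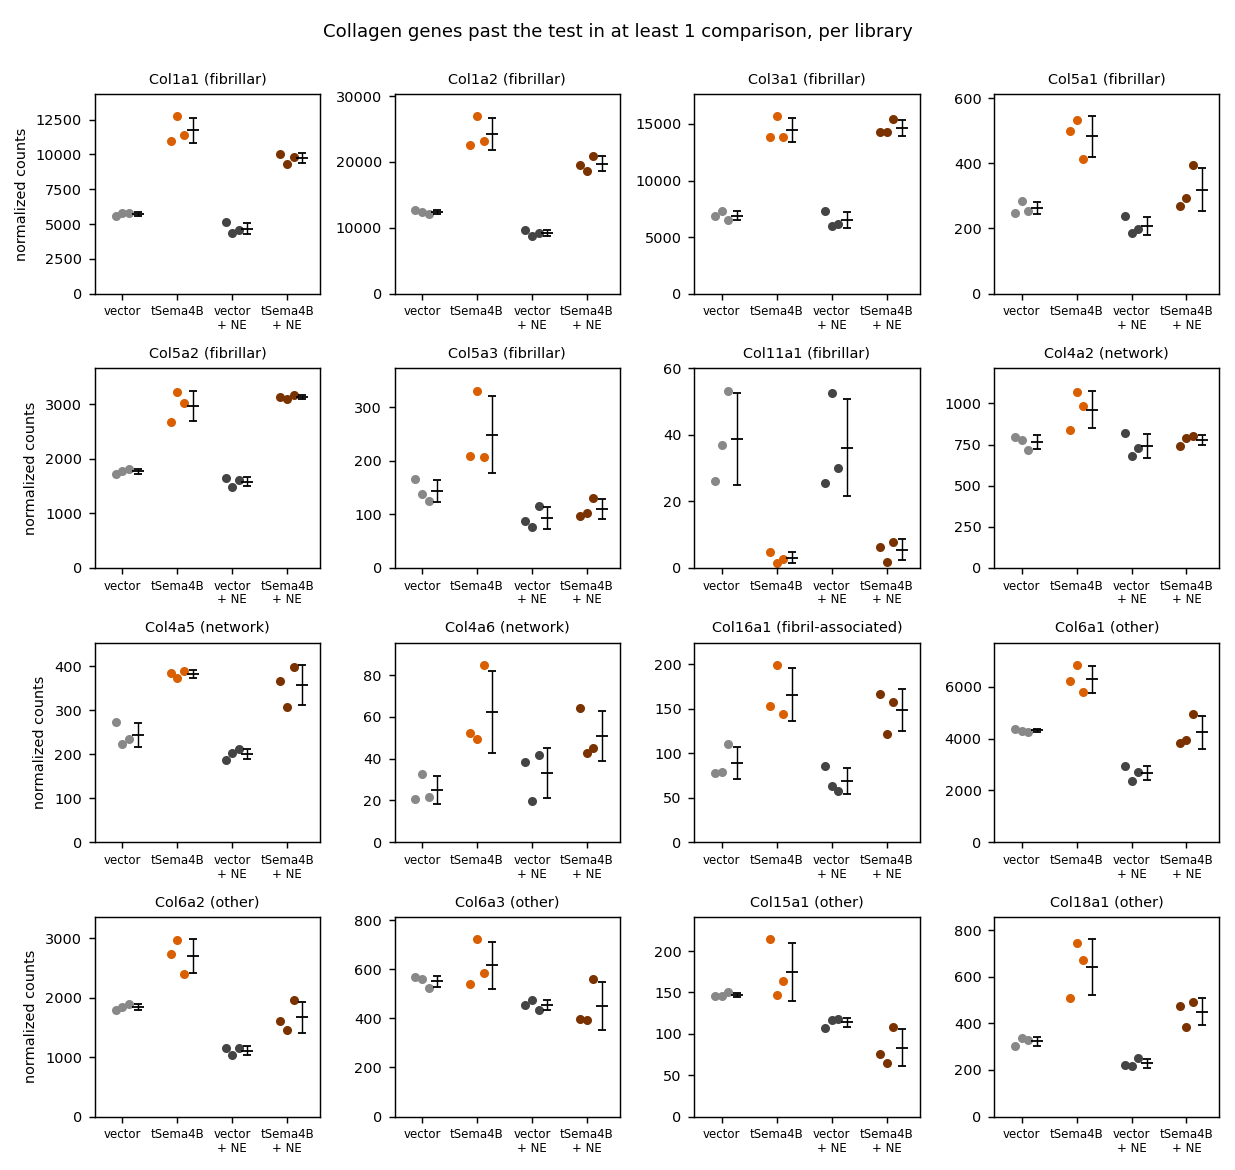
Normalized counts per library of the 16 collagen genes that passed the test in at least 1 comparison, on linear axes that start at 0, with the mean and SD (n = 3) beside each group. Col1a1, Col1a2, Col3a1 and Col5a2 show wide gaps between vector and tSema4B libraries, and Col11a1 the opposite order.

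Among the network collagens, the basement membrane chains Col4a1 and Col4a2 form the common type IV trimer. Col4a1 was at 2032, 2138 and 1862 normalized counts in vector and 2068, 2528 and 2266 in tSema4B cells without stimulation, which overlap, and the log2 fold change was 0.18 (95% interval -0.02 to 0.39, adjusted p = 0.25). After NE it was at 2273, 1792 and 1982 and at 1675, 1871 and 2096, with -0.10 (95% interval -0.30 to 0.10, adjusted p = 0.52). Both intervals exclude a change of the size seen for Col1a1 and Col3a1. Col4a2 was at 798, 779 and 714 and at 839, 1067 and 983 without stimulation. It rose by 0.33 (SE 0.10, adjusted p = 0.034), a call that was lost in 5 of the 6 fits with a library left out (all but the fit without tSema4B replicate 1, highest adjusted p = 0.15), with no filter (adjusted p = 0.072) and under scaling to nuclear genes (0.24, adjusted p = 0.11). After NE Col4a2 gave 0.07 (95% interval -0.14 to 0.28, adjusted p = 0.66).

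Col4a5 and Col4a6, the chains of a second type IV network, are neighbours on chromosome X. Col4a5 was at 274, 223 and 234 normalized counts in vector and 385, 373 and 390.2 in tSema4B cells, and after NE at 187, 202 and 211 and at 367, 308 and 398. It rose by 0.65 (SE 0.13, adjusted p = 0.0011) and 0.83 (SE 0.13, adjusted p = 7.2e-05), with the groups apart in both conditions. Col4a6 was at 20.6, 32.8 and 21.8 in vector and 52.4, 49.5 and 84.9 in tSema4B cells without stimulation. It rose by 1.27 (SE 0.34, adjusted p = 0.014), but without tSema4B replicate 3, the library with 84.9, the adjusted p was 0.08, and without vector replicate 1 it was 0.065. After NE it was at 38.3, 19.6 and 41.9 and at 64.3, 42.6 and 44.9, and the log2 fold change was 0.64 (95% interval -0.06 to 1.34, adjusted p = 0.20). Col8a1, a short-chain network collagen, was between 56.3 and 131 in all libraries and did not pass (adjusted p = 0.27 and 0.088). Its groups were apart, at 63.0 to 79.5 in vector and 80.8 to 131 in tSema4B cells without stimulation. After NE they were at 56.3 to 75.9 and 85.8 to 114, and this difference passed the threshold in 2 of the 19 other settings.

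Col16a1, a fibril-associated collagen, was at 78.2, 79.0 and 110.0 normalized counts in vector and 154, 199.5 and 144 in tSema4B cells, and after NE at 85.3, 63.4 and 57.6 and at 166, 122 and 157. No tSema4B value reached down to a vector value, and Col16a1 rose by 0.89 (SE 0.21, adjusted p = 0.0057) and 1.11 (SE 0.21, adjusted p = 6.0e-04). Col12a1, the other gene of this class that was tested, lay between 105 and 191 in all libraries, with log2 fold changes of 0.11 in both conditions and 95% intervals from -0.33 to 0.54 and from -0.32 to 0.55.

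The beaded filament collagen VI is assembled from Col6a1, Col6a2 and Col6a3 chains. Col6a1 was at 4382, 4299 and 4268 normalized counts in vector and 6229.7, 6853 and 5784 in tSema4B cells without stimulation, and after NE at 2927, 2368 and 2713 and at 3829, 3938 and 4956. It rose by 0.54 (SE 0.09, adjusted p = 0.00023) and 0.66 (SE 0.09, adjusted p = 1.6e-05). Col6a2 was at 1789.6, 1841 and 1899 and at 2730.5, 2973 and 2399, and after NE at 1158, 1032 and 1147 and at 1609, 1451 and 1956. It rose by 0.55 (SE 0.10, adjusted p = 0.00046) and 0.58 (SE 0.10, adjusted p = 0.00019). Neither gene's groups overlapped, and both had smaller fold changes than the type I and III genes. Col6a3 was at 568, 559 and 524 and at 539.9, 722 and 585 without stimulation and did not follow, with 0.15 (95% interval -0.12 to 0.42, adjusted p = 0.51). After NE it was at 453, 475 and 435 and at 398, 392 and 562, with -0.03 (95% interval -0.30 to 0.24, adjusted p = 0.90).

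Of the multiplexins, the basement membrane proteoglycan collagens, Col18a1, which carries endostatin, was at 301, 336 and 330.0 normalized counts in vector and 509, 744 and 671 in tSema4B cells, and after NE at 222, 215 and 251 and at 476, 384 and 492. It rose by 0.97 and 0.96 (SE 0.14 each, adjusted p = 2.5e-05 and 2.4e-05). Its relative Col15a1 was at 146, 145 and 150.3 in vector and 215, 147 and 164 in tSema4B cells, with 0.23 (adjusted p = 0.49), and after NE at 108, 116 and 118 and at 76.1, 65.3 and 108, with -0.48 (adjusted p = 0.085). Without tSema4B NE replicate 3, the highest of its group, the difference after NE passed (-0.68, adjusted p = 0.019). Col7a1 of the anchoring fibrils lay between 0 and 14.2 and Col28a1 between 2.18 and 31.7, and neither passed the test between the lines.

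The second question was what 6 h of NE did to the collagen genes. In vector cells 0 of the 22 rose, where 6.82% of all genes tested did, and 5 fell, where 4.78% did. At an unadjusted p under 0.05, 1 was higher and 10 were lower, and edgeR and DESeq2 each called 1 higher, Col28a1, a gene with few reads. When a log2 change of 1 or more was required too, 0 rose and 0 fell, against 1.66% and 0.975% of all genes. In tSema4B cells 0 rose, against 3.68%, and 9 fell, against 2.58%, with 2 of them by 1 or more on the log2 scale, against 0.758%. With that change required, 0 rose, against 1.31%. At an unadjusted p under 0.05 in limma 0 were higher there, and edgeR and DESeq2 called 0. Without tSema4B unstimulated replicate 2, or without tSema4B NE replicate 2, 4 rather than 9 fell in tSema4B cells. The median over the members was -0.29 in vector and -0.28 in tSema4B cells, beside -0.02 and -0.00 over all genes. Values of NE and unstimulated libraries did not overlap for 11 members that were lower and 1 that was higher in vector cells (15.7% and 17.6% of all genes), and for 9 and 0 in tSema4B cells (9.64% and 11.0%).

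Col6a1 and Col6a2 had larger declines on the log2 scale than the type I genes in both lines. From the values given above, Col6a1 fell by 0.70 in vector and 0.57 in tSema4B cells on the log2 scale (SE 0.09 each, adjusted p = 2.0e-05 and 0.00032), and Col6a2 by 0.73 and 0.70 (SE 0.10 each, adjusted p = 2.9e-05 and 8.8e-05). No NE library reached the level of an unstimulated library of the same line. Col6a3 had -0.28 (adjusted p = 0.20) in vector cells and fell by 0.46 (SE 0.13, adjusted p = 0.037) in tSema4B cells, where the NE library with 562 overlapped the unstimulated range. This call was lost without any of tSema4B unstimulated replicates 2 and 3 and tSema4B NE replicates 1 and 2 (adjusted p between 0.061 and 0.17), with no filter (0.085), with thinned reads (0.086) and with the compared libraries alone (0.14).

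Type I collagen fell less. Col1a2 fell by 0.43 in vector cells (SE 0.07, adjusted p = 0.00019) and by 0.29 in tSema4B cells (SE 0.07, adjusted p = 0.0092). Col1a1 fell by 0.30 (adjusted p = 0.0060) and 0.27 (adjusted p = 0.022). In tSema4B cells the Col1a1 and Col1a2 calls were lost without tSema4B unstimulated replicate 2 (adjusted p = 0.11 and 0.060) or tSema4B NE replicate 2 (0.088 and 0.055), under quantile normalization (0.89 and 0.17), and with no filter on low values (0.13 and 0.11), and that of Col1a1 also with the compared libraries alone (0.054). Under quantile normalization the log2 fold change of Col1a1 in tSema4B cells was -0.03. In vector cells the Col1a1 call was lost under quantile normalization (0.053). Col3a1 had -0.09 (95% interval -0.25 to 0.06, adjusted p = 0.49) in vector and 0.02 (95% interval -0.13 to 0.17, adjusted p = 0.92) in tSema4B cells, and Col5a2 had -0.17 (adjusted p = 0.18) and 0.08 (adjusted p = 0.63). The Col3a1 to Col1a1 ratio per kb was 1.28 ± 0.0791 in vector, 1.32 ± 0.0255 in tSema4B, 1.48 ± 0.0398 in vector NE and 1.61 ± 0.0816 in tSema4B NE cells (SD, n = 3), and NE and unstimulated libraries of the same line did not overlap.

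Col5a3 and Col15a1 had the largest declines after NE among the 22 members in tSema4B cells. Col5a3 fell by 1.14 there (SE 0.21, adjusted p = 0.0011), from 207 to 331 down to 96.5 to 131, and had -0.63 (adjusted p = 0.051) in vector cells, where 10 of the 19 other settings passed the threshold. Col5a1 fell by 0.61 (SE 0.15, adjusted p = 0.015) in tSema4B cells and had -0.34 (adjusted p = 0.16) in vector cells. The Col5a1 call was lost without tSema4B unstimulated replicate 1 or 2 or tSema4B NE replicate 1 or 2 (adjusted p between 0.056 and 0.071). Col15a1 fell by 1.08 (SE 0.19, adjusted p = 0.0011) in tSema4B cells, with no overlap of its groups, and had -0.37 (adjusted p = 0.26) in vector cells. Col18a1 fell by 0.49 in vector cells (SE 0.14, adjusted p = 0.022) and by 0.50 in tSema4B cells (SE 0.14, adjusted p = 0.030). Its vector call was lost without vector unstimulated replicate 2 or 3 or vector NE replicate 1 or 2 (adjusted p between 0.070 and 0.088), and its tSema4B call without tSema4B unstimulated replicate 2 or 3 or tSema4B NE replicate 2 (adjusted p between 0.097 and 0.14), with no filter (0.064) and with the compared libraries alone (0.093).

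The 5 network genes did not pass the test after NE in either line. Col4a1 had -0.28 (adjusted p = 0.093) and Col4a2 -0.30 (adjusted p = 0.083) in tSema4B cells, beside -0.00 and -0.05 in vector cells. The Col4a1 difference passed without tSema4B NE replicate 3 (adjusted p = 0.045), and that of Col4a2 without tSema4B unstimulated replicate 1 (adjusted p = 0.032). Col28a1, a little-studied collagen, had the highest log2 fold change after NE in vector cells among the 22 collagen genes tested, at 4.34, 4.20 and 2.18 normalized counts without and 20.2, 5.33 and 22.3 with NE. The value 1.71 (95% interval 0.40 to 3.03, adjusted p = 0.087) did not pass, and it did without vector NE replicate 2, the library with 5.33 (2.32, adjusted p = 0.034). In reads this was 2 to 5 per unstimulated and 9 to 34 per NE vector library. Col28a1 passed the low-value filter mainly through the NE libraries of both lines, where it was high, so its rise is given as a description.

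**Figure D4:**
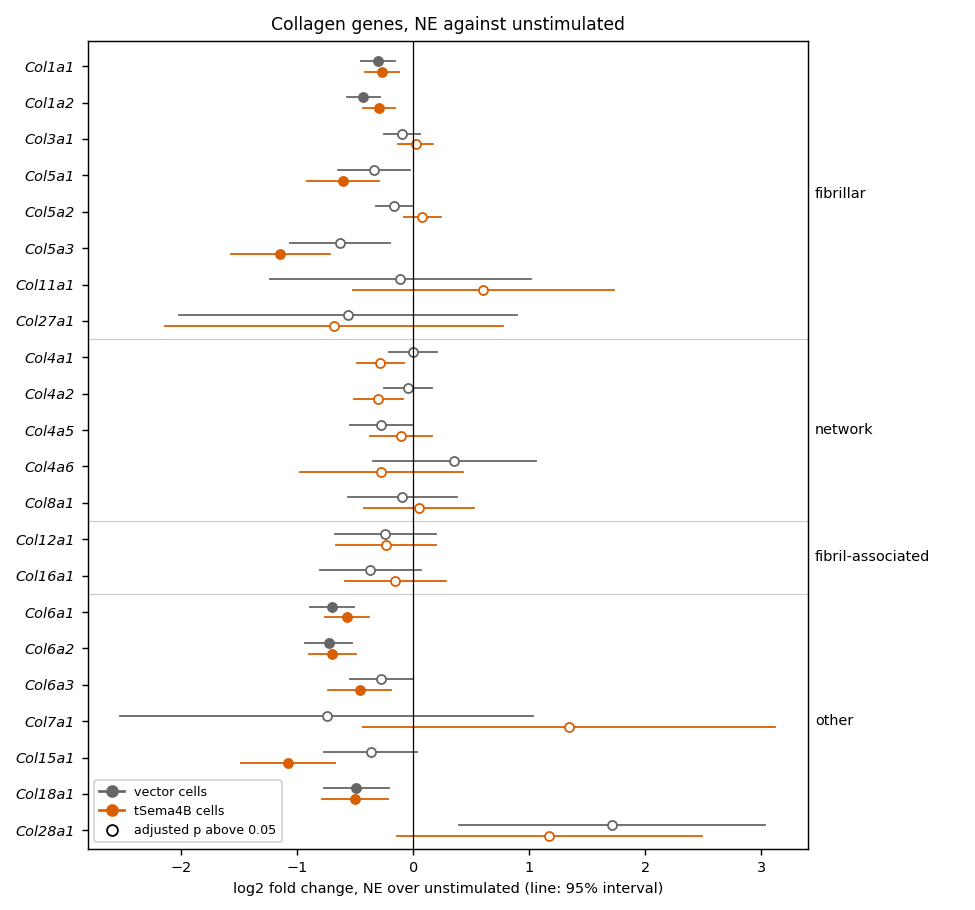
Log2 fold change of NE over unstimulated for the 22 members tested, grouped by class, in vector and in tSema4B cells. Lines are 95% intervals of the limma fit, and filled points have an adjusted p of 0.05 or less. Col6a1 and Col6a2 sit between -0.57 and -0.73 in both lines, whereas Col3a1 sits at -0.09 and 0.02.

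Whether NE acted differently in tSema4B cells was tested with the interaction term. It called 0 of the 22 members in either direction, where 0.0250% and 0% of all genes tested passed, and with a log2 value of 1 or more 0.00833% did. At an unadjusted p under 0.05 limma gave 1 higher and 1 lower, and edgeR and DESeq2 called 0. The lowest adjusted p among the members was 0.36, that of Col15a1 (-0.71, 95% interval -1.28 to -0.14). Col5a2 had 0.24 (95% interval 0.02 to 0.47, adjusted p = 0.42) and Col5a3 -0.51 (95% interval -1.12 to 0.09, adjusted p = 0.58). The declines of Col5a1, Col5a3, Col6a3 and Col15a1 that passed in tSema4B cells alone are thus not shown to differ from those in vector cells. Median and range over the members were 0.02 and -0.71 to 2.09, the upper end being Col7a1 with few reads.

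Chains of the same collagen type did not all keep their proportions. The Col6a1 to Col6a2 ratio per kb was 2.26 ± 0.0972, 2.25 ± 0.0667, 2.31 ± 0.116 and 2.45 ± 0.160 in vector, tSema4B, vector NE and tSema4B NE cells (SD, n = 3), with overlapping libraries. With the exon union as length the same ratios were 4.45, 4.43, 4.55 and 4.83. The Col6a3 to Col6a1 ratio was 0.0581 ± 0.00187 in vector and 0.0445 ± 0.00447 in tSema4B cells, and 0.0783 ± 0.0114 and 0.0481 ± 0.00320 after NE, lower in every tSema4B library than in every vector library of the same condition. The Col4a5 to Col4a1 ratio went up in the tSema4B groups, from 0.123 ± 0.0159 to 0.171 ± 0.0198 without stimulation and from 0.102 ± 0.0162 to 0.193 ± 0.0276 after NE. The Col5a3 to Col5a2 ratio was 0.0875 ± 0.0146 and 0.0898 ± 0.0192 without stimulation and 0.0634 ± 0.0123 and 0.0380 ± 0.00597 after NE. Between classes, the Col1a1 to Col4a1 ratio was 3.19 ± 0.252 and 5.73 ± 0.178 without stimulation and 2.59 ± 0.0942 and 5.82 ± 0.759 after NE, so the fibrillar chain gained on the basement membrane chain in tSema4B cells. These ratios carry no test.

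**Figure D5:**
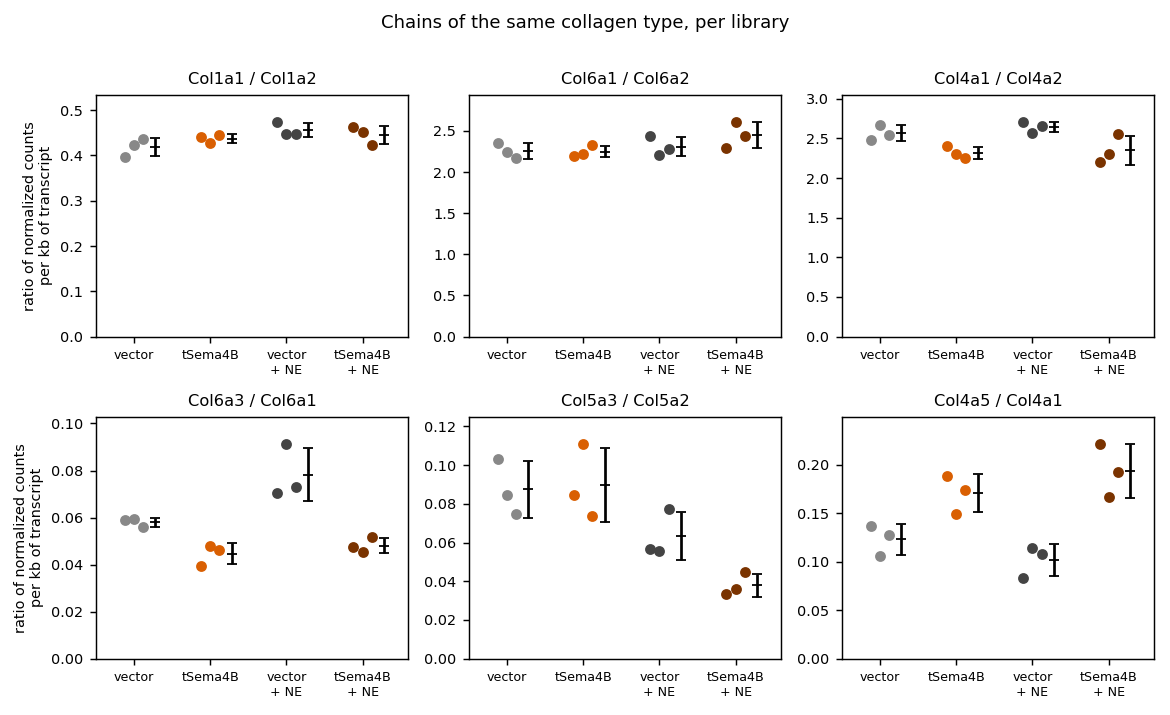
Ratios of normalized counts per kb of principal transcript for 6 pairs of chains, with 1 point per library and the mean with its SD (n = 3). Col1a1 to Col1a2 lies between 0.397 and 0.475 in all libraries, whereas Col6a3 to Col6a1 is lower and Col4a5 to Col4a1 higher in the tSema4B groups.

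Several collagen genes are neighbours in the genome. In the GENCODE annotation on GRCm38, Col4a1 and Col4a2 lie head to head on chromosome 8 with 22 bases of overlap, and Col4a6 and Col4a5 head to head on chromosome X, 1308 bases apart. Col3a1 and Col5a2 lie tail to tail on chromosome 1, 24614 bases apart, and Col6a2 and Col6a1 on the same strand of chromosome 10, 85161 bases apart. Between the lines without stimulation, where 20 of the 22 members had a positive log2 fold change, the values within each pair were 0.18 and 0.33 for Col4a1 and Col4a2, 0.65 and 1.27 for Col4a5 and Col4a6, 1.07 and 0.74 for Col3a1 and Col5a2, and 0.54 and 0.55 for Col6a1 and Col6a2, of which Col4a1 did not pass the test. After NE they were -0.10 and 0.07, 0.83 and 0.64, 1.18 and 0.99, and 0.66 and 0.58, of which Col4a1, Col4a2 and Col4a6 did not pass.

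RefSeq promoter windows were matched to 35 of the 44 members, among them 19 of the 22 tested. The 150 bases before the start of 3 fibrillar genes are shown because Col3a1 and Col5a1 were higher and Col11a1 was lower in tSema4B cells. They are from RefSeq on GRCm38.p6, plus strand, 5′ to 3′, and overlap no annotated exon (Col3a1 at chr1:45311388-45311537, Col5a1 at chr2:27886275-27886424 and Col11a1 at chr3:114030390-114030539). Capitals mark the letters CCAAT (read as ATTGG on the other strand), the letters TATAAA (read as TTTATA) and the letters GGGCGG (read as CCGCCC).
Col3a1: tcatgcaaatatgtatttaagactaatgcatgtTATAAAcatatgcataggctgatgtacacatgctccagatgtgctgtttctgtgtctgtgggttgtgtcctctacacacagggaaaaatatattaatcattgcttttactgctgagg
Col5a1: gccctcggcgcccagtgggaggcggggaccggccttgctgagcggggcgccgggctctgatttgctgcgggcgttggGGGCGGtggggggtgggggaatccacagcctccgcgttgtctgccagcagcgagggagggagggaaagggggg
Col11a1: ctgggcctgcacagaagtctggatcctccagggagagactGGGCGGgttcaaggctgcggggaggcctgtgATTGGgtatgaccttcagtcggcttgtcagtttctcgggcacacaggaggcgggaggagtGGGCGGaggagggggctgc
The GC content of the 250 bases before the start was 35.2% for Col3a1, 76.4% for Col5a1 and 62.4% for Col11a1. The 19 tested members matched had 21 such windows of 250 bases, since Col6a2 and Col18a1 had 2 each. Exon sequence lay in 9 of them, among them the windows of Col4a1 and Col4a2 over their whole length. On either strand, the letters CCAAT were found in 9 of the 21 windows and in 33.8% of 32851 promoter windows, TATAAA in 1 (Col3a1) and in 12.4%, and GGGCGG in 14 and in 32.7%. These matches describe letters in a window and no binding was measured.

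Genes that modify, export, cleave, crosslink, bind and degrade collagen were followed as a list of 69, of which 58 were tested. In tSema4B cells 23 of them rose without stimulation and 32 after NE, and 0 fell in either condition, where 5.64% and 9.79% of all genes tested rose and 7.39% and 11.2% fell. At an unadjusted p under 0.05 in limma, 2 were lower without stimulation and 1 after NE. The calls of edgeR and DESeq2 were not tallied for this list. Their median was 0.42 and 0.49 on the log2 scale, beside -0.00 and -0.01 over all genes. After NE 2 rose and 13 fell in vector cells, against 6.82% and 4.78% of all genes, and 5 rose and 9 fell in tSema4B cells, against 3.68% and 2.58%. Tll1, counted as higher in both lines, had means of 3.21 in vector and 6.23 in tSema4B cells without NE. With NE these were 32.6 and 48.8. It passed the low-value filter mainly through its NE libraries, where it was high, so its rise is given as a description. By group, without stimulation 2 of 13 hydroxylation and glycosylation genes, 2 of 6 chaperone and export genes, 3 of 6 for propeptide cleavage, 2 of 5 for crosslinking, 5 of 8 fibril partners, 3 of 6 receptors, 4 of 6 for breakdown and its inhibitors and 2 of 8 of the TGF-beta group rose in tSema4B cells, against 5.64% of all genes. After NE the counts in the same order were 5 of 13, 4 of 6, 3 of 6, 3 of 5, 5 of 8, 4 of 6, 5 of 6 and 3 of 8, against 9.79%.

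Of these genes, 7 passed the test with a log2 change of 1 or more between the lines in at least 1 condition. Over all genes tested, 1.11% rose and 2.71% fell at this threshold without stimulation, and 2.03% and 3.73% after NE. Dcn (decorin, a proteoglycan that coats fibrils) rose by 1.00 and 1.03 (adjusted p = 2.7e-07 and 2.2e-07), from 773 ± 71.0 to 1547 ± 97.4 normalized counts without stimulation (SD, n = 3). Adamts2, the protease that removes the amino-terminal propeptide of fibrillar collagens, rose by 0.87 (adjusted p = 0.00034) and 1.12 (adjusted p = 1.3e-05), and Bmp1, which removes the carboxy-terminal one, by 0.74 (adjusted p = 0.011) and 1.02 (adjusted p = 0.00051). P4ha3, a catalytic chain of prolyl 4-hydroxylase, had 0.32 (adjusted p = 0.46) without stimulation and rose by 1.28 (adjusted p = 0.00071) after NE. Tgfb2, a ligand known to induce collagen genes, rose by 1.49 (adjusted p = 1.3e-05) and 0.95 (adjusted p = 0.0015), and Timp1, an inhibitor of matrix metalloproteinases, by 1.05 (adjusted p = 7.8e-06) and 0.50 (adjusted p = 0.010). The collagen-binding integrin chain Itga11 had 0.92 (adjusted p = 0.13) and rose by 1.14 (adjusted p = 0.042) after NE.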

How the data were processed

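Per the paper's methods and the submitters' processing notes, total RNA was made into cDNA by SMART-Seq2 and into Nextera libraries, screened for reads of other species, aligned with STAR 2.7.9a to mm10 (GRCm38.p4), counted per gene with HTSeq and divided by DESeq2 size factors. What the authors deposited is a signal, namely a read count per gene after this division. Strand setting and gene annotation are not given in the sources used here. Dividing by what 1 read was worth gave whole numbers for 100% of values above 0 (tolerance 0.01), so whole reads were recovered. Between 2000780 and 5409583 reads were counted on genes, and intervals cover the spread between libraries only.

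Differences were tested with limma 3.58.1 (R 4.3.3) on log2(normalized count + 1) for genes at 10 or more in 3 or more libraries, with all 12 libraries in 1 model, variances that follow a trend on abundance, two-sided p and Benjamini-Hochberg adjustment over 11998 genes. Fold changes of low genes are understated by the pseudocount. An exact permutation of 3 against 3 libraries cannot go below a p of 0.1. Members were named if they passed the filter, with values in every library if they had an adjusted p of 0.05 or less in any comparison, and genes of the collagen pathway if they passed with a log2 change of 1 or more between the lines. Members, lists and rules were chosen with earlier results of these data known. The Ccn2 gene of the list is called Ctgf in the table. Levels per kb used the principal GENCODE M21 transcript. Alternatives were other pseudocounts, filters and scalings, edgeR 4.0.16, DESeq2 1.42.0, thinned reads, a replicate block, the compared libraries alone and each library left out. The deviations of libraries with the same number from their group means correlated at -0.0470 to 0.0282 (18 pairs, 0 above 0.1). This did not show them to be pairs and cannot exclude that they were handled together. Scripts were first tested on simulated data with known changes. 0 columns of values were left unused.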

Additional observations from a re-analysis of the deposited data

How the results depend on the processing

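No called collagen value changed sign under any alternative run. Of the 110 pairs of a member and a comparison, 39 were called, 29 of these in every setting that tested the gene, and 7 of the 71 others passed in at least 1 setting. Requiring a log2 change of 1 or more lowered the count of higher genes from 13 to 3 (unstimulated) and from 10 to 4 (NE) between the lines, and the count of lower genes after NE from 5 to 0 in vector and from 9 to 2 in tSema4B cells. A filter at 50 normalized counts, which 18 members passed, removed Col11a1 and left 0 lower in both comparisons of the lines. Without a filter on low values 5 rather than 9 fell after NE in tSema4B cells, and the cause was not tested. Quantile normalization, edgeR and DESeq2 each gave 1 gene (Col28a1) higher after NE in vector cells in place of 0. This gene passed the low-value filter mainly through its NE libraries.

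With each library left out in turn, the counts were 11 to 13 higher and 1 to 1 lower between the lines without stimulation, 10 to 10 and 1 to 2 after NE, 0 to 1 higher and 4 to 6 lower for NE in vector cells and 0 to 0 and 4 to 10 in tSema4B cells. The lowest of these, 4, came without tSema4B unstimulated replicate 2 or tSema4B NE replicate 2. The collagen share ranged from 1.20% to 1.24% in vector, 2.15% to 2.30% in tSema4B, 0.898% to 0.974% in vector NE and 1.89% to 1.97% in tSema4B NE cells. On nuclear reads alone it was 1.42%, 2.43%, 1.12% and 2.09% in vector, tSema4B, vector NE and tSema4B NE cells. Without Sema4b reads it was 1.26%, 2.48%, 0.963% and 2.10% in the same order. The replicate block left the counts at 13 and 1, 10 and 1, 0 and 5, and 0 and 9, and same-numbered libraries were not shown to be pairs. Genes such as Col7a1, Col27a1 and Col28a1 had few reads, and whether more depth would change their calls was not tested.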
